A study of Mus musculus with 6 samples.

Results

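The keratin, desmosome and squamous barrier genes were chosen by name, as the keratins (KRT), small proline-rich proteins (SPRR), S100A calcium-binding proteins, desmosomal cadherins (DSC and DSG), plakophilins (PKP) and SPINK protease inhibitors, together with DSP, JUP, CRNN, ANXA1, PPL, EVPL and IVL. The names matched 80 of the 13702 genes in the count table. The group was proposed because these genes had been seen to be abundant in 1 wild-type library, so their levels are given as a description, and the genotype test at the end is used to count calls only. RNA came from pancreatic islets of 12-week-old mice, with 3 libraries from β-PCKO mice (KO), which lack pyruvate carboxylase in the insulin-secreting β-cells, and 3 from wild-type littermates (WT). The Cre line or promoter behind the deletion, and whether animals were pooled, are not given in the sources used here. The table lists human gene names and identifiers for libraries labelled mouse, so each value counts reads that were given to a human gene name.

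Keratins are the intermediate filament proteins of epithelial cells, and a filament is built from pairs of a type I and a type II keratin. Desmosomes anchor these filaments at cell junctions: their cadherins bridge neighbouring cells, and the plaque proteins plakoglobin, plakophilins and desmoplakin link the cadherins to keratin. In stratified squamous epithelium, such as the lining of mouth and oesophagus or the epidermis, the upper cells also cross-link involucrin, small proline-rich proteins and plakins into a cornified envelope. Islet endocrine cells are not squamous, and the keratins usual in pancreatic epithelium are the simple-epithelial KRT7, KRT8, KRT18 and KRT19.

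Depth was uneven, with 35906 counts for WT replicate 1, 377876 for WT replicate 2, 135441 for WT replicate 3 and 224898 to 225561 for the KO libraries. On the CPM scale used here (counts scaled to a fixed library total, a share of all counts), 1 count was worth 27.9 in WT replicate 1 but 2.65 in WT replicate 2. The WT libraries were unlike one another and the KO libraries nearly alike: the chi-square of 2 libraries, taken over genes whose summed count reached 20 and set per degree of freedom, was 16.5 to 35.1 between WT libraries and 1.96 to 2.02 between KO libraries, where sampling noise gives 1. PC, the gene deleted in the KO mice, was counted 4 times in WT replicate 2 and not at all (0) in the other 5 libraries, too rarely to check the labels. Of 34 islet endocrine markers 19 were listed, INS, GCG and SST not among them, and they summed to 0.705%, 0.0402% and 0.221% of the counts of WT replicates 1, 2 and 3 and to 0.503% to 0.549% of those of the KO libraries. Of 20 markers of pancreatic acinar cells only 3 were listed, CUZD1, CTRC and PRSS1. Each had 1 count in WT replicate 2 and 0 in the other 5 libraries, so acinar RNA cannot be judged from them.

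The 4 promoters below belong to the mouse namesakes of 4 of these genes, a suprabasal keratin (KRT13), a basal keratin (KRT5) and the cornification genes SPRR3 and CRNN, and are shown because the counts of these genes lay together in 1 library. Each is the 100 bases before the RefSeq transcription start in build GRCm38.p6, at chr11:100121567-100121666 (minus strand) for Krt13, chr15:101712906-101713005 (minus) for Krt5, chr3:92458721-92458820 (minus) for Sprr3 and chr3:93144689-93144788 (plus) for Crnn. Capitals mark the letters ATAAAA, the TATA-like string chosen after the sequences were seen, which began 28 to 32 bases before the start.
KRT13: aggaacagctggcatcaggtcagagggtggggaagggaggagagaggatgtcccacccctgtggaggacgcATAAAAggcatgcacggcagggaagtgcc
KRT5: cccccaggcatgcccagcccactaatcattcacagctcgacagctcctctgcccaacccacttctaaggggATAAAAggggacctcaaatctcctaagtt
SPRR3: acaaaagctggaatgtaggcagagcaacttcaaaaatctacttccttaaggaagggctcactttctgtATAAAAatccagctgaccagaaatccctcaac
CRNN: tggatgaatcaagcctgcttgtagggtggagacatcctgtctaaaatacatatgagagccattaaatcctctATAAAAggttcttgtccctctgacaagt

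A promoter was found for 43 of the 80 genes (46 promoters, as a gene can have several), with 250 bases before the start searched on both strands. ATAAAA was in 19 of the 46 (41.3%) and in 17.0% of all 32851 promoters, and TATAAA, which can overlap it, in 43.5% and 12.4%. TGANTCA, the letters that AP-1 factors bind, was in 12 of the 46 (26.1%) and in 6.75% of all. The promoters shown above, in which ATAAAA was picked, are among the 46, so its share there is in part set by that choice. These are matches of letters only, anywhere in the 250 bases, and close relatives within a family share promoter sequence.

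Counts of the 80 genes lay almost wholly in WT replicate 2. They took 26.2% of all counts there (95% interval 26.1 to 26.3), against 0.209% (0.164 to 0.262) in WT replicate 1 and 0.306% (0.277 to 0.337) in WT replicate 3. In KO replicates 1, 2 and 3 they took 0.178%, 0.167% and 0.169%. WT replicate 2 therefore stood apart, and the other 5 libraries lay within 0.167% to 0.306%. At least 1 count was seen for 79 of the 80 genes in WT replicate 2, and for 17 to 30 in the other libraries. Of all 13702 genes, 12193 were detected in WT replicate 2, the library with most counts, and 3294 to 8298 in the others. The numbers detected thus follow depth in part only. WT replicate 3 had fewer counts than the KO libraries but more genes detected (8298 against 7617 to 7676). In WT replicate 2, 9 of the 10 genes with most counts were keratin, desmosome or barrier genes. In bulk RNA, fewer cells of a type and less RNA per cell cannot be told apart.

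**Figure D1:**
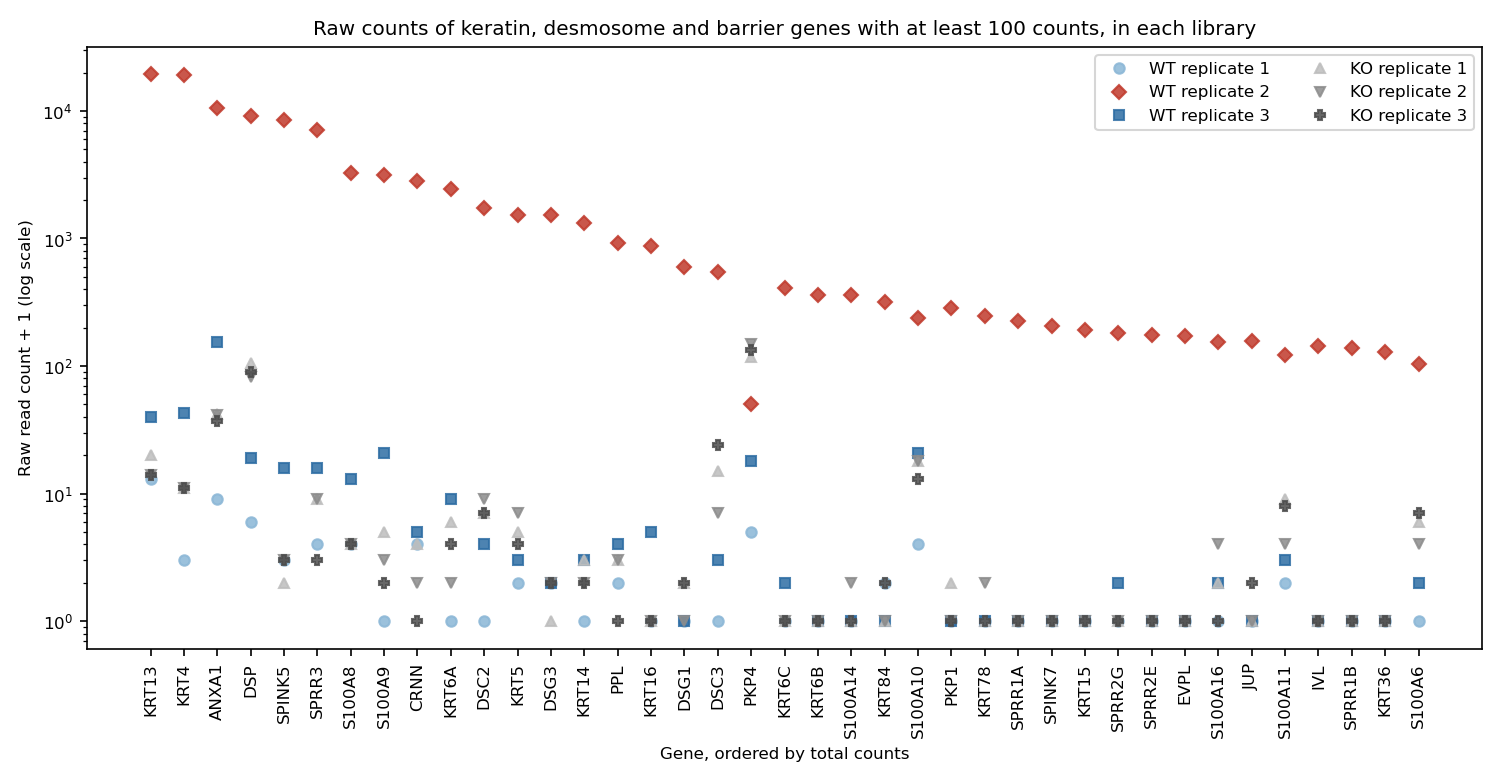
Raw read counts (plus 1, log scale) of the 39 keratin, desmosome and barrier genes with at least 100 counts, ordered by total counts; each symbol is 1 library. WT replicate 2 lies above the other 5 libraries for every gene shown except PKP4, where the KO libraries are highest.

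Of the 80 genes, 39 had at least 100 counts over the 6 libraries, and 34 of these had at least 95% of their counts in WT replicate 2. Over all genes with at least 100 counts, 82 of 2059 (3.98%) did. The median share of a gene's counts in WT replicate 2 was 99.5% for the 39 and 20.4% over all 2059 genes. The 5 exceptions were PKP4 (10.5%), S100A10 (77.3%), S100A11 (85.3%), S100A6 (87.2%) and DSC3 (92.3%). At the other end, 40 of the 80 had no count outside WT replicate 2, and 25 had at most 10 counts in all libraries together. No share over all genes stands beside these numbers, and WT replicate 2 was the deepest library, so nothing is read from them. The genes had been proposed for their abundance in that library. Of the 39, only PKP4, DSP and ANXA1 reached 100 counts without it (416, 298 and 277). The high shares of the 39 were thus largely set by the choice of genes and the cut, and stand as a description.

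**Figure D2:**
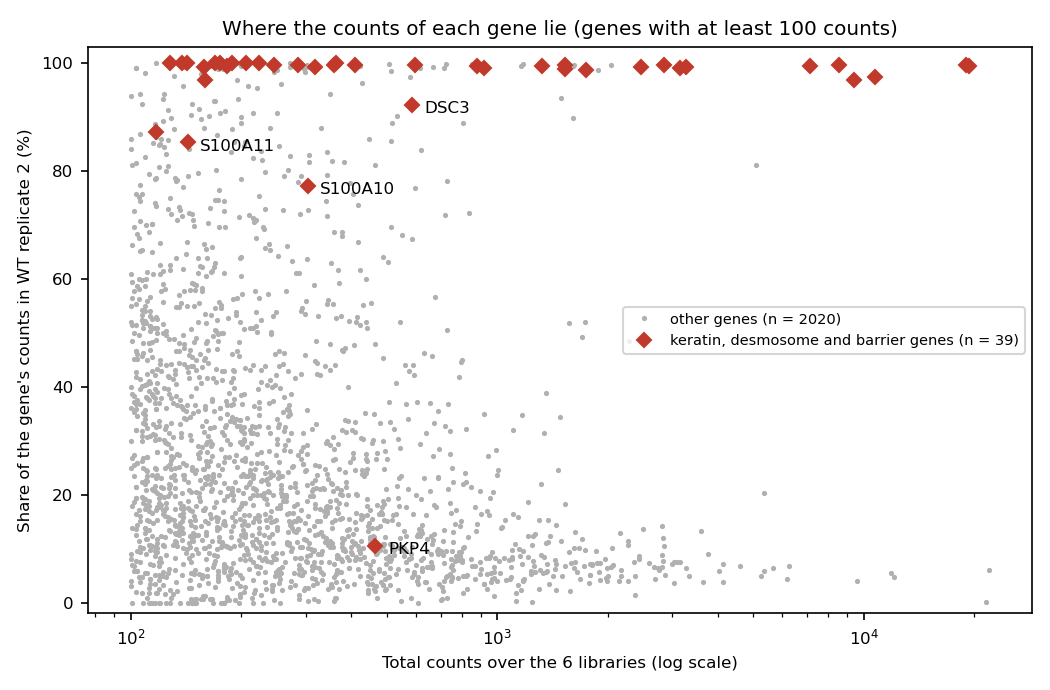
Share of each gene's counts found in WT replicate 2 (vertical axis, %) against its total counts over 6 libraries (log scale), for 2059 genes with at least 100 counts. Diamonds are the 39 keratin, desmosome and barrier genes, which lie near the top edge except PKP4 at 10.5% and a few S100 genes and DSC3 between 77.3% and 92.3%.

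Among the keratins, a suprabasal pair led. KRT13, the type I keratin of the upper layers of moist squamous linings, had 12, 19353 and 39 counts in the WT libraries, in the order of their replicate numbers, and 19, 13 and 13 in the KO libraries. KRT4, its type II partner, had 2, 18963 and 42 counts in WT and 10 in each KO library. WT replicate 2 lay far above the rest. As a share, KRT13 stood at 334 CPM in WT replicate 1 (95% interval 173 to 584) and 288 in WT replicate 3 (205 to 394), above the 57.8 to 84.2 CPM of KO (upper limits up to 132). KRT4 stood at 310 CPM in WT replicate 3 (224 to 419) and 44.3 to 44.5 in KO (upper limits up to 81.8), and at 55.7 CPM in WT replicate 1 (6.75 to 201), which overlapped KO. The counts of the pair were nearly equal in WT replicate 2, with a KRT4 to KRT13 ratio of 0.98 (95% counting interval 0.960 to 1.00). Per kilobase of the longest mouse transcript of the same name, they stood at 8890 and 11701 counts, a ratio of 0.76 (0.745 to 0.775).

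The basal layer pair was present at a lower level. KRT5, the type II keratin of basal cells, had 1, 1515 and 2 counts in WT and 4, 6 and 3 in KO. KRT14, its type I partner, had 0, 1318 and 2 in WT and 2, 1 and 1 in KO. Per kilobase the KRT5 to KRT14 ratio in WT replicate 2 was 0.888 (0.825 to 0.957), from 690 and 776 counts per kilobase, well below the suprabasal pair. KRT15, another basal type I keratin, had 189 counts in WT replicate 2 and 0 in the other 5 libraries.

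Keratins of activated, rapidly renewing epithelium were likewise in WT replicate 2. KRT6A, the type II member, had 0, 2450 and 8 counts in WT and 5, 1 and 3 in KO. Its type I partner KRT16 had 0, 879 and 4 in WT and 0 in each KO library. In the pairs above the type II keratin lay below its partner per kilobase. Here it lay above, with a KRT6A to KRT16 ratio of 1.91 (1.77 to 2.07). KRT6B and KRT6C, near copies of KRT6A between which reads may be divided, had 362 and 407 counts in WT replicate 2, 0 and 1 in WT replicate 3 and 0 elsewhere. KRT17, another keratin of this state, had 2 counts, both in WT replicate 2.

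Some keratins of particular sites also had counts. KRT78, a type II keratin of squamous lining, had 245 counts in WT replicate 2 and 1 in KO replicate 2. The hard keratins KRT84 and KRT36, known from hair, nail and the filiform papillae of the tongue, had 317 and 128 counts in WT replicate 2. Outside it, KRT84 had 1 count in WT replicate 1 and 1 in KO replicate 3, and KRT36 had none (0). The other 7 listed hair and nail keratins had 1 to 10 counts each, all in WT replicate 2.

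The pair of the cornified epidermis was nearly missing there. KRT1, its type II member, had 8 counts in WT replicate 2 and 0 elsewhere. KRT10, its type I partner, had 0, 5 and 6 counts in WT and 3, 0 and 4 in KO. KRT76, a keratin of hard palate and gingiva, had 18 counts in WT replicate 2 only, and KRT2 had 4. KRT3, the corneal type II keratin, had 6 counts in WT replicate 2 and 0 in the other libraries, and its partner KRT12 was not among the genes in the count table. Levels this low carry wide intervals: the KRT1 to KRT10 ratio per kilobase was 1.36 (0.394 to 5.30).

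Of the simple-epithelial keratins, those of pancreatic ducts, KRT8 and KRT7 had their highest level in WT replicate 1, and KRT18 and KRT19 had their highest counts in WT replicate 2. KRT8 had 16, 16 and 0 counts in WT and 1, 0 and 0 in KO. As a share this was 446 CPM in WT replicate 1 (95% interval 255 to 724) and 42.3 CPM in WT replicate 2 (24.2 to 68.8), so the intervals did not overlap and WT replicate 1 was higher. KRT7 had 9, 2 and 0 counts in WT and 0 in each KO library, or 251 CPM in WT replicate 1 (115 to 476) and 5.29 CPM in WT replicate 2 (0.641 to 19.1). KRT18, the usual type I partner of KRT8, had 0 counts in WT replicate 1, which allows up to 83.6 CPM there. It had 12 in WT replicate 2, 0 in WT replicate 3 and 3, 1 and 2 in KO. KRT19 had 0, 56 and 13 counts in WT and 2, 1 and 4 in KO. Among 13 other duct and simple-epithelium markers listed, none had a count (0) in WT replicate 1.

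**Figure D3:**
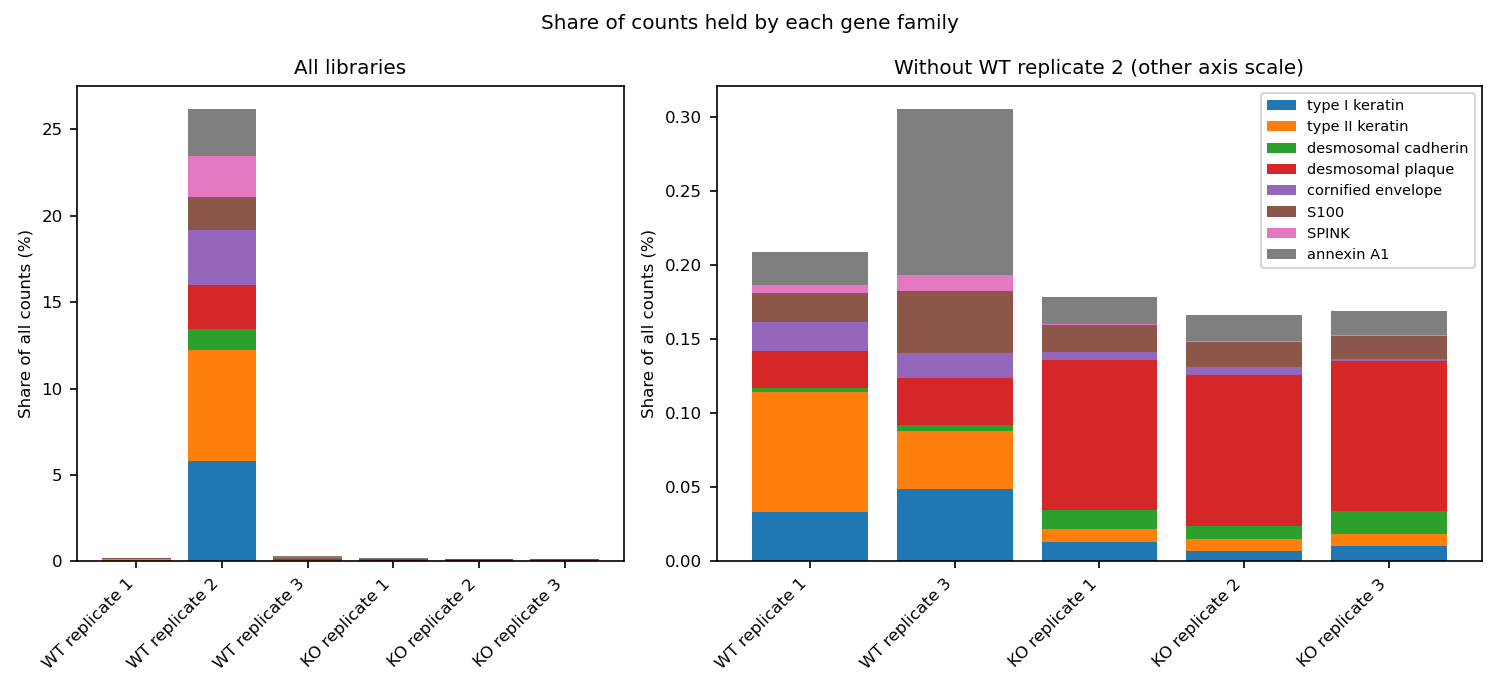
Share of all counts (%) held by each gene family, stacked, in each library (left) and in the 5 libraries other than WT replicate 2 on a finer axis (right). In WT replicate 2 the bar reaches 26.2%, with keratins the largest part; in the KO libraries desmosomal plaque genes hold most of 0.167% to 0.178%.

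Desmosomal cadherins took 1.17% of counts in WT replicate 2, 0.00279% in WT replicate 1, 0.00443% in WT replicate 3, and 0.00889% to 0.0160% in KO. DSC2, a desmocollin found in most epithelia, had 0, 1719 and 3 counts in WT and 6, 8 and 6 in KO. DSG3, the desmoglein of the basal and lower layers of squamous linings, had 1, 1524 and 1 in WT and 0, 1 and 1 in KO. DSG1, a desmoglein of the upper layers, had 595 counts in WT replicate 2, 0 in the other WT libraries and 1, 0 and 1 in KO. All 3 were high in WT replicate 2 alone.

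DSC3 and DSG2 were also seen in KO libraries. DSC3, a desmocollin of stratified epithelium, had 0, 541 and 2 counts in WT and 14, 6 and 23 in KO. Its KO levels of 62.1, 26.7 and 102 CPM lay above the 14.8 CPM of WT replicate 3, which rested on 2 counts (1.79 to 53.3). That interval overlapped those of KO replicates 1 (33.9 to 104) and 2 (9.78 to 58.0), but not that of KO replicate 3 (64.8 to 153). The 0 counts of WT replicate 1 allow up to 83.6 CPM. DSG2, the desmoglein of simple epithelia and heart, had 0, 31 and 0 counts in WT and 8, 5 and 5 in KO. In CPM the KO libraries stood at 22.2 to 35.5 and WT replicate 2 at 82.0.

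In the desmosomal plaque, desmoplakin differed from the keratins. DSP, which ties keratin filaments to the junction, had 5, 9108 and 18 counts in WT and 105, 81 and 89 in KO. In CPM these were 139, 24103 and 133 in WT and 466, 360 and 396 in KO. WT replicate 2 was far above all others, and the KO libraries lay above WT replicates 1 and 3. The KO mean of 407 ± 53.7 CPM (SD, n = 3) was 2.92 times the level in WT replicate 1 and 3.06 times that in WT replicate 3. The SD is that of the nearly alike KO libraries. The 5 counts of WT replicate 1 have an interval of 45.2 to 325 CPM. It overlapped those of KO replicates 2 (286 to 447) and 3 (318 to 487), but not that of KO replicate 1 (381 to 563). The interval of WT replicate 3 (78.8 to 210) lay below all KO intervals.

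PKP4, a plakophilin-related armadillo protein found at junctions of many cell types, was the only gene of the 39 shown with its highest counts in KO. It had 4, 49 and 17 counts in WT and 116, 147 and 132 in KO. Its level was 111, 130 and 126 CPM in WT and 514, 653 and 587 CPM in KO, and the groups did not overlap. The intervals of WT replicates 1, 2 and 3 were 30.4 to 285, 95.9 to 171 and 73.1 to 201 CPM, the first resting on 4 counts. All lay below those of KO, the lowest of which began at 425. In CPM the level was alike in the 3 WT libraries. The 80 genes took 26.2% of the counts of WT replicate 2, which lowers the CPM of other genes there, so this likeness depends on the scale. The KO mean of 585 ± 69.4 CPM (SD, n = 3) was 5.25 times WT replicate 1 and 4.66 times WT replicate 3.

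The other plaque genes followed the keratins at lower counts. PKP1, the plakophilin of upper squamous layers, had 284 counts in WT replicate 2, 1 in KO replicate 1 and 0 elsewhere. JUP, which encodes plakoglobin, had 157 in WT replicate 2 and 1 in KO replicate 3. PKP3 had 48, all in WT replicate 2. PKP2, the plakophilin of heart and simple epithelia, had 0, 11 and 8 counts in WT and 6, 2 and 6 in KO, so its libraries overlapped.

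Genes of the cornified envelope took 3.17% of counts in WT replicate 2 and at most 0.0195% in any other library. SPRR3, a small proline-rich protein of oral and oesophageal lining, had 3, 7081 and 15 counts in WT and 8, 8 and 2 in KO. CRNN, which encodes cornulin, a late differentiation protein of squamous lining, had 3, 2835 and 4 in WT and 3, 1 and 0 in KO. PPL, which encodes the plakin periplakin, had 1, 913 and 3 in WT and 2, 2 and 0 in KO. For each of the 3, WT replicate 2 alone was high. Its partner envoplakin (EVPL) had 170 counts and IVL, the gene of involucrin, 142, all in WT replicate 2.

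Small proline-rich genes other than SPRR3 had counts in WT replicate 2 with a single exception. SPRR1A had 224 there, SPRR1B 138, SPRR2E 175 and SPRR2D 89. SPRR2G had 182 there and 1 count in WT replicate 3. SPRR2B, SPRR2F and SPRR4 had 29, 5 and 1. The SPRR2 genes are close copies, so the division of reads among them is uncertain. The 9 SPRR genes with a RefSeq mouse namesake lie at chr3:92316705-92500493 in GRCm38, and their counts within that stretch ran from 1 (SPRR4) to 7081 (SPRR3) in WT replicate 2.

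The S100 genes showed a mixed picture. S100A8 and S100A9, which encode the calprotectin subunits of neutrophils and of stressed squamous epithelium, led. S100A8 had 3, 3247 and 12 counts in WT and 3 in each KO library, and S100A9 had 0, 3129 and 20 in WT and 4, 2 and 1 in KO. In CPM, S100A8 stood at 83.6 in WT replicate 1 (17.2 to 244) and 88.6 in WT replicate 3 (45.8 to 155), against 13.3 in each KO library. S100A9 stood at 148 CPM in WT replicate 3 and 4.45 to 17.7 in KO, and its 0 counts in WT replicate 1 allow up to 83.6. Neutrophil and myeloid markers, none of them an S100 gene, took 0.0651% of counts in WT replicate 2, 0.0118% in WT replicate 3, 0 in WT replicate 1 and 0.000443% to 0.00178% in KO. Of the 20 on that list 11 were listed. LCN2, which squamous epithelium also makes, held 196 counts in WT replicate 2, while CXCR2 had 10, FPR1 1 and LTF 2 there. PTPRC, the general leukocyte gene, had 0, 27 and 11 counts in WT and 1, 1 and 4 in KO. What part such cells had in the S100A8 and S100A9 counts was not tested.

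S100 genes of many tissues were less bound to WT replicate 2. S100A10, the annexin A2 partner, had 3, 235 and 20 counts in WT and 17, 17 and 12 in KO, or 83.6, 622 and 148 CPM in WT and 53.4 to 75.5 CPM in KO. S100A11 had 1, 122 and 2 in WT and 8, 3 and 7 in KO, and S100A6 had 0, 102 and 1 in WT and 5, 3 and 6 in KO. S100A14, an epithelial member, had 358 counts in WT replicate 2 and 1 in KO replicate 2. S100A16 had 0, 154 and 1 in WT and 1, 3 and 0 in KO. S100A4, known from mesenchymal cells, had 3 counts in WT replicate 2, 0 in the other WT libraries and 2, 6 and 5 in KO. S100A13 was the gene with 0 counts in WT replicate 2, and it had 1 count in each of KO replicates 1 and 3.

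SPINK5, which encodes the protease inhibitor LEKTI of squamous epithelium, had 2, 8563 and 15 counts in WT and 1, 2 and 2 in KO. SPINK7, an inhibitor of oesophageal lining, had 206, all in WT replicate 2. SPINK1, the pancreatic secretory trypsin inhibitor of acinar cells, had 1 count, in WT replicate 2. ANXA1, which encodes annexin A1, a membrane-binding protein of squamous epithelium, leukocytes and connective tissue cells, had 8, 10454 and 152 counts in WT and 41, 40 and 36 in KO. In WT replicate 3 it stood at 1122 CPM (951 to 1315), above the 223 CPM of WT replicate 1 (96.2 to 439) and the 160 to 182 CPM of KO. It thus held 36.7% of the counts of the 80 genes in WT replicate 3, against 10.6% in WT replicate 2.

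Set per kilobase of mouse transcript, the order in WT replicate 2 changed for the long and short genes. KRT13 and KRT4 stayed at ranks 1 and 2, and S100A8, ANXA1, S100A9 and SPRR3 followed at 6681, 6245, 6029 and 5795 counts per kilobase. SPINK5 and CRNN came next at 1790 and 1522. DSP, whose mouse transcript has 9592 bases, fell to rank 10 at 950 counts per kilobase. Lengths are those of mouse transcripts, whereas reads were assigned to human-named genes, so these levels are approximate.

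The counts of the leading genes in the other libraries were set against those in WT replicate 2. Of the 80 genes, 14 had at least 1000 counts in WT replicate 2. Per 1000 of those counts, WT replicate 3 had a median of 2.0 (range 0.656 for DSG3 to 14.5 for ANXA1), WT replicate 1 a median of 0.486 (0 to 1.06), and KO replicates 1, 2 and 3 medians of 1.20, 0.715 and 0.715. In WT replicate 3, 9 of the 14 lay between 1.32 (KRT5) and 2.21 (KRT4), with KRT13 at 2.02. KRT6A (3.27), S100A8 (3.70), S100A9 (6.39) and ANXA1 lay above them, and DSG3 below. In the KO libraries DSP stood out at 8.89 to 11.5. Where these low counts came from was not tested.

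**Figure D4:**
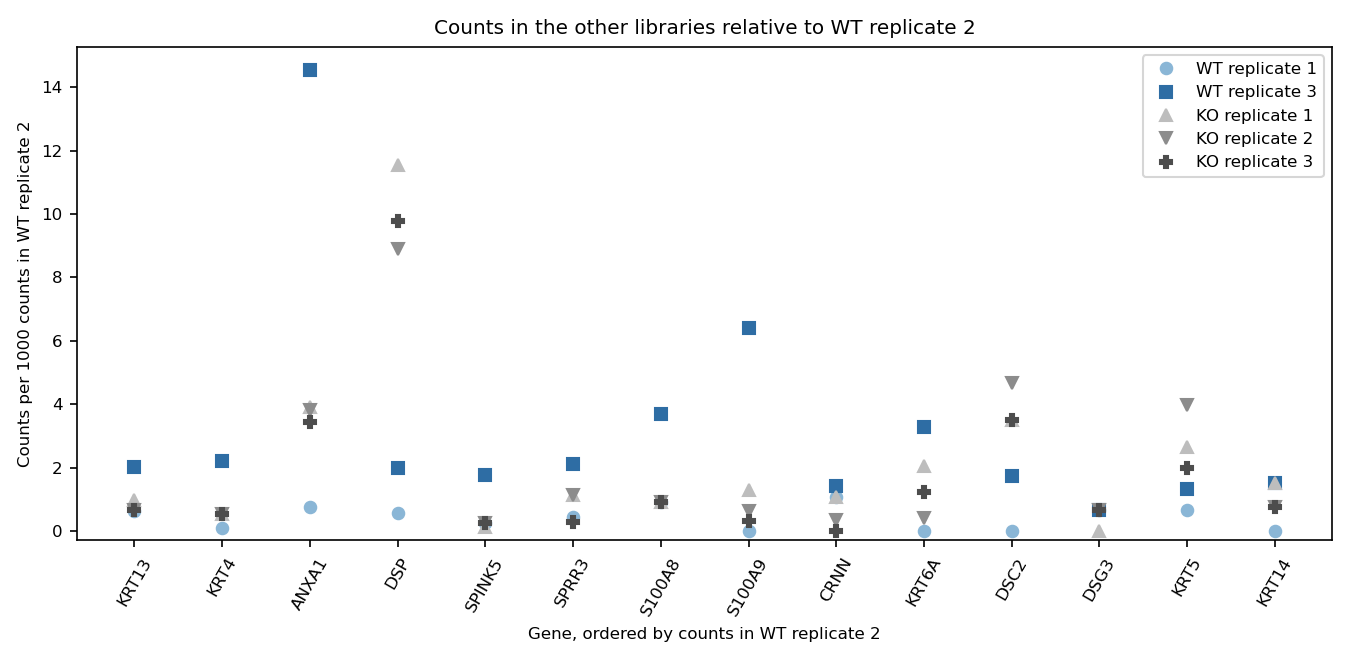
Counts in each of the 5 other libraries per 1000 counts in WT replicate 2, for the 14 genes with at least 1000 counts there. Most points lie under 4; ANXA1 in WT replicate 3 (14.5) and DSP in the KO libraries (8.89 to 11.5) lie highest.

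**Figure D5:**
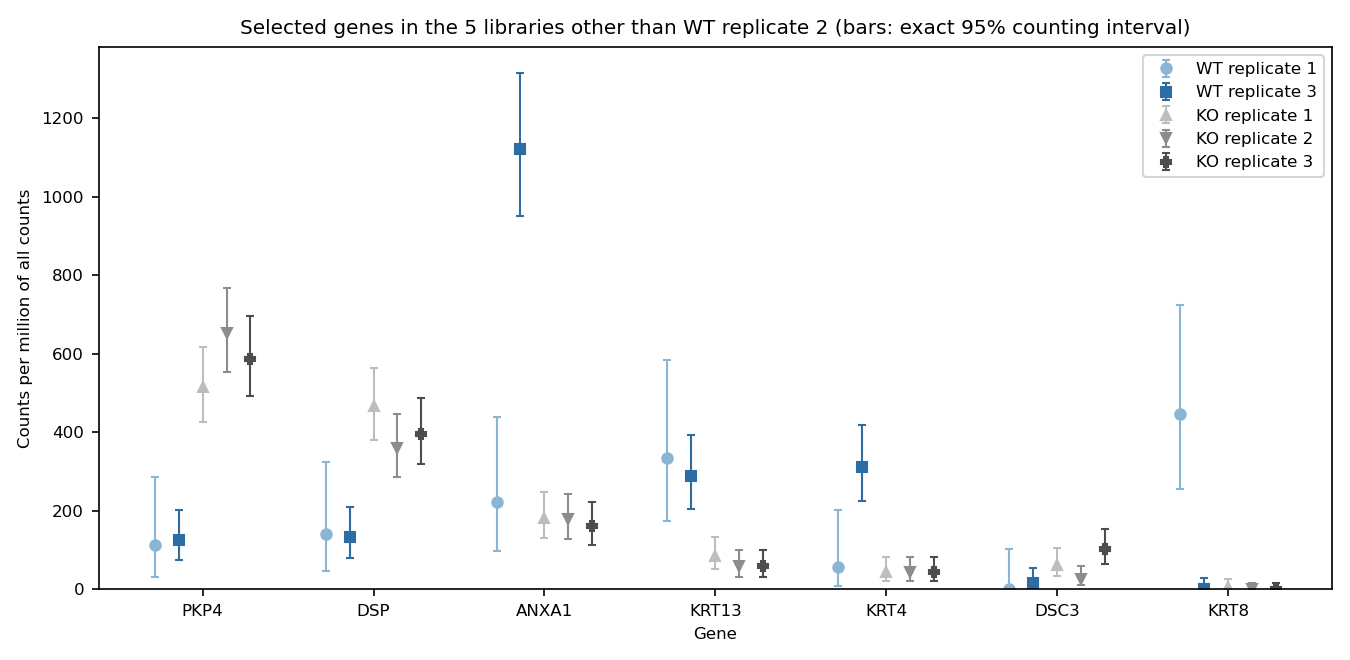
Level in CPM, with exact 95% counting intervals, of 7 genes in the 5 libraries other than WT replicate 2. PKP4 and DSP are higher in the KO libraries than in WT replicates 1 and 3, though for DSP the interval of WT replicate 1 overlaps those of KO replicates 2 and 3. ANXA1 is highest in WT replicate 3, and KRT8 is highest in WT replicate 1.

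Genes outside the 80 with a like pattern were counted by a fixed rule. Of those, 16 of 411 (3.89%) with at least 500 counts had at least 95% of them in WT replicate 2. Among them were the cystatin genes CSTA and CSTB (2037 and 1857 counts there), RPTN, TCHH and SCEL, which encode repetin, trichohyalin and sciellin of the cornified envelope (1616, 1154 and 1600), TGM3, the transglutaminase that cross-links the envelope (1569), and A2ML1, a protease inhibitor gene (1505). GBP6, TMPRSS11B, SERPINB13, SBSN, FABP5, MUC21, GJB2 and AIM1 were also among them, with 505 to 1174 counts there.

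Suprabasal and cornified markers outside the 80 genes (33 listed) took 3.65% of counts in WT replicate 2, 0.0334% in WT replicate 1, 0.0495% in WT replicate 3 and 0.0129% to 0.0155% in KO, and 15 of the 16 with at least 100 counts had at least 95% of them in WT replicate 2. Basal markers were less bound to that library. Of 20 listed outside the 80, 7 had at least 100 counts and 2 of these, FAT2 and SFN, passed 95%. TP63, the transcription factor of basal squamous cells, had 1, 169 and 4 counts in WT and 19, 17 and 14 in KO. DST, which encodes dystonin and is also expressed in nerve and muscle, had 837 in WT replicate 2 and 256 to 295 in KO. Junction genes outside desmosomes took 0.891% of counts in WT replicate 2, 0.259% in WT replicate 1, 0.157% in WT replicate 3 and 0.419% to 0.442% in KO. Corneal markers outside the 80 (5 listed) took 0.0333% of counts in WT replicate 2, 0.290% in WT replicate 1, 0.237% in WT replicate 3 and 0.209% to 0.233% in KO. PAX6, which islets also express, led this list in WT replicate 1 and the KO libraries, with 98 and 397 to 452 counts, and KERA led it in WT replicate 3, with 256 counts and 0 elsewhere.

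Of the 80 gene names, 72 also named a mouse gene when case was ignored. The other 8 had 1032 of the 99019 counts of the 80 genes in WT replicate 2, or 1.04%. DSG1 and KRT6C held most of these, with 595 and 407, and S100A7, S100A12, KRT3, KRT38, KRT85 and SPINK9 had 1 to 11. By mouse namesake, 18 genes lay on chromosome 11, which holds the type I keratin cluster, 16 on chromosome 15 with the type II cluster, and 22 on chromosome 3 with the SPRR and S100 genes, and these took 5.91%, 6.33% and 4.84% of the counts of WT replicate 2. Counts varied within a cluster: the 16 type I keratins at chr11:99315516-100261029 had 1 to 19353 counts there, 11 of them under 100.

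The genotype comparison reached few of these genes, because a low-count filter that asks for a minimum level in at least 3 libraries kept 10 of the 80 among 2560 genes tested. In edgeR's quasi-likelihood test at an adjusted p of 0.05, SPINK5 and S100A8 were called lower in KO and PKP4 higher. SPINK5 and S100A8 passed the filter only through the 3 WT libraries, where they were higher. Their calls as lower in KO therefore carry no weight beyond that selection. In WT replicate 1 they rested on 2 and 3 counts. Over all genes tested 3.01% were called lower and 5.04% higher, 8.05% in all. Since the genes were chosen with this contrast known, nothing is read from these shares. The median log2 fold change (KO minus WT) was −7.42 for the 10 and −0.14 over all 2560. Without WT replicate 2 it was −1.76 for the 10 and −0.06 over 2780 genes. Of the 2780, 0.0719% were called lower and 0.324% higher (0.396% in all), and none (0) of the 10 was called in edgeR. Nothing is read from these values either, since the choice of genes and the filter both depend on the levels compared. DSP and DSC3 turned from −4.99 and −3.62 to 1.76 and 2.63, and PKP4 went from 1.98 to 2.45. KRT13 and KRT4 moved from −8.68 and −9.22 to −2.04 and −1.98. Leaving out WT replicate 3 also ended the call of PKP4, and leaving out KO replicate 1, 2 or 3 ended all 3 calls.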

How the data were processed

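The authors deposited 1 table with whole-number read counts per gene for each of the 6 libraries, not normalized per the file headers, and 6 further per-sample columns that hold normalized values per the file headers and were not used. Per the submitters' processing notes the tools included HISAT2 2.0.4 and HTSeq 0.9.1, besides cutadapt 1.9.3 and edgeR 3.16.5, and the build was mm10; no role is stated for any. Ribosomal RNA was removed from total RNA and the library kit marks strand, per the labels' protocols. No source used here says how reads came to human identifiers. A row without an identifier (1) was left out.

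Groups and replicate numbers came from the titles, which do not say that each library is a separate animal; p-values then measure only the spread between libraries, which may be technical. Genes and lists (9 marker lists) were chosen with earlier results of these data known. CPM are shares of all counts; intervals are exact Clopper-Pearson at 95%, a count of 0 allows 3 counts, and both cover counting error only. Per-kilobase values use the longest protein-coding mouse transcript of the same name (GENCODE). The genotype test was run over the whole table in edgeR 4.0.16 under R 4.3.3 (TMM, filterByExpr, quasi-likelihood F test, two-sided, Benjamini-Hochberg at 0.05), after a check on simulated data. Alternatives were other scalings and filters, each library left out, a replicate block and DESeq2 1.42.0. Genes were named with library counts if they had at least 100 counts or belonged to 7 keratin pairs; family members below 100 counts were named after their values were seen. Genes of like pattern had at least 500 counts, 95% of them in WT replicate 2, and 1 of them is not reported here. Promoters are from RefSeq (GRCm38.p6).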

Additional observations from a re-analysis of the deposited data

How the results depend on the processing

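The share of counts in WT replicate 2 held by the 80 genes (26.2%) was 16.1% without KRT4 and KRT13, 25.9% with the genes that have a mouse namesake and 26.7% when other genes over 1% of a library left the denominator. The number of genes called in the genotype test (206) was 439 with no filter on low counts, 385 with a minimum mean of 5 CPM and 137 with the replicate number as a block, and 3 to 1527 with a library left out. Of the 80 genes, 2 were called lower. Without a filter the number was 39 of 80 tested, against 218 of 13702 over all genes. At a mean of 5 CPM it was 35 of 54, against 162 of 8340. With DESeq2 it was 1 (KRT8) of 7, against 89 of 3997, and SPINK5 and S100A8 were not called. With a library left out it was 0 to 11, against 0 to 711 over all genes. The choice of genes and the filters depend on the levels compared, so nothing is read from these counts. The single gene called higher, PKP4, was not called (0) with DESeq2 size factors or with the replicate block, and the count was 0 to 1 with a library left out. The looser filters also tested more of the 80 genes, 80 with no filter and 54 at a mean of 5 CPM, against 10. For the other changes the cause was not tested. Same-numbered WT and KO libraries did not deviate together (correlations −0.0022, −0.015 and 0.019), so the numbers were not taken to pair them. In WT replicate 1 a gene with 0 counts may stand at up to 83.6 CPM, which limits every comparison of low genes with that library.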
